A study of Mus musculus with 9 samples.

Results

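The genes described here are 8 molecules with a known part in suppression by regulatory T cells (Treg cells): Entpd1, Nt5e, Il10, Ebi3, Lrrc32, Nrp1, Gzmb and Fgl2. They were chosen by gene symbol, by function and not by measured value, but with earlier results of these data known. The members are 8 of 34092 genes in the table of read counts. All 8 had reads and passed the filter on low counts, so each was tested. RNA was measured in Treg cells sorted directly from mice and left unstimulated. The samples labelled CNS2KO have the genotype Foxp3deltaCNS2-gfp, in which a gfp-marked Foxp3 gene lacks its conserved noncoding sequence CNS2, and the samples labelled WT have the genotype Foxp3gfp, in which the gfp-marked gene is otherwise intact. Both genotypes therefore carry a gfp allele of Foxp3. The labels give no age, sex, tissue or number of animals per sample, and they give each sample a number without saying what it stands for. Of 3 CNS2KO and 6 WT samples listed, 2 (numbers 399 and 408) and 5 (numbers 398, 402, 405, 1032 and 1037) were used. The column names of WT 1032 and 1037 begin with R, and those of the other libraries used begin with YI. What these letters stand for is not given. The number 407 stands on a sample of each genotype, and its columns hold the same values in every row. The labels do not state that each sample is a different animal, and the spread that the p-values rest on may therefore be technical.

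Treg cells restrain other immune cells, and Foxp3 is the transcription factor that defines them. CNS2 is an intronic enhancer of Foxp3, known for keeping the gene switched on as Treg cells divide. The suppression genes act in several ways: the ectoenzymes CD39 (Entpd1) and CD73 (Nt5e) turn extracellular ATP stepwise into adenosine, IL-10 (Il10) and IL-35, of which Ebi3 is a subunit, are secreted cytokines, and GARP (Lrrc32) holds latent TGF-beta on the cell surface. Neuropilin-1 (Nrp1) is a semaphorin receptor, granzyme B (Gzmb) is a granule protease that kills target cells, and fibrinogen-like protein 2 (Fgl2) can be secreted to act on Fc receptors. The comparison asks whether the RNA of these molecules differs when CNS2 is missing.

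RefSeq sequence around the transcription start (build GRCm38.p6, 250 bases before to 50 bases after the start, written 5′ to 3′ on the strand of the gene) was found for 6 of the 8 genes, with 7 promoters in all because Entpd1 has 2. Il10 and Lrrc32 were not matched. Promoters of 3 genes are shown. Gzmb and Nrp1 were the pair of members with the highest Pearson correlation over the libraries, which did not pass after adjustment. Fgl2 is shown because it held, with Gzmb, a match to the AP-1 motif. Capitals mark matches, on either strand, to TGANTCA (AP-1) or TGTGGT (Runx).
Gzmb: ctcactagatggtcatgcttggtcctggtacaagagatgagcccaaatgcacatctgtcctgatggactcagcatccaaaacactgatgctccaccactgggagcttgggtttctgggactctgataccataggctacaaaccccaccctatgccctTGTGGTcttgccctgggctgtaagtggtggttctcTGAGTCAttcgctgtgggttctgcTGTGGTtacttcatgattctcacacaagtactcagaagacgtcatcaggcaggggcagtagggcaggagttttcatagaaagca
Fgl2: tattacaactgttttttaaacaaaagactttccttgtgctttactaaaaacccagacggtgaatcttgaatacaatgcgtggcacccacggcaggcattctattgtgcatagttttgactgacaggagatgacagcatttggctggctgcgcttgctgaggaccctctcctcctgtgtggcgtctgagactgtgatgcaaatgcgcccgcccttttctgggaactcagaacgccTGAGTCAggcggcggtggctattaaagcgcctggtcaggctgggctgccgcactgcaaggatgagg
Nrp1: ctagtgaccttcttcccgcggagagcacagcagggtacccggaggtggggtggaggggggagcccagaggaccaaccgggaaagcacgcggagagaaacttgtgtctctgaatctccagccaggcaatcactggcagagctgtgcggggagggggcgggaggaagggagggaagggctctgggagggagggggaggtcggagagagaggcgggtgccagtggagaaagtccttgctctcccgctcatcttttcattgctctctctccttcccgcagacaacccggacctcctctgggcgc
The Gzmb promoter (chr14:56262285-56262584, minus strand) held 1 AP-1 match beginning 58 bases before the start and 2 Runx matches beginning 93 and 34 bases before it. The Fgl2 promoter (chr5:21372423-21372722, plus strand) held 1 AP-1 match beginning 16 bases before the start. None of the 6 motifs searched was found in the Nrp1 promoter (chr8:128358823-128359122, plus strand). Over all 32851 promoters of this length, 7.81% held the AP-1 letters and 16.8% the Runx letters. The other motifs searched on both strands were a forkhead motif (GTAAACA, in 3.65% of promoters), a CRE (TGACGTCA, 1.79%), an Ets motif (CAGGAAG, 13.3%) and an NFAT motif (GGAAAA, 23.4%). Of these, Ebi3 held 1 Ets match and the second Entpd1 promoter held 1 NFAT and 1 Runx match, and no forkhead or CRE match was found in any of the 7 promoters. These matches describe the letters in the window.

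Reads assigned to genes numbered 16557424 (WT 402) to 21836578 (CNS2KO 399) per library, and a count of 3 reads corresponded to 0.142 to 0.182 CPM (reads scaled to a common library size, with TMM factors). The number of genes with any read ranged from 14639 in CNS2KO 399 to 19206 in CNS2KO 408. Foxp3 itself had 463 and 441 CPM in the CNS2KO libraries, against 410 to 606 CPM in the WT libraries. All 10 genes of a Treg identity list had reads, and Ikzf2, the Treg-associated factor Helios, averaged 955 CPM in CNS2KO and 955 CPM in WT. Ighm, the B cell heavy chain gene, averaged 1007 CPM in CNS2KO and 1081 CPM in WT. Summed erythroid markers reached 31.4 to 156 CPM in CNS2KO, with the higher value in CNS2KO 399, against 6.84 to 27.6 CPM in WT.

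None of the 8 suppression genes was called changed in CNS2KO Treg cells. Per kilobase of transcript, Nrp1, Nt5e, Lrrc32 and Entpd1 stood above Gzmb, Ebi3, Fgl2 and Il10 in every library of both genotypes. Under edgeR's quasi-likelihood test with Benjamini-Hochberg adjustment, 0 of 8 passed at an FDR of 0.05, as did 0 of 14424 genes tested (0% called), and the adjusted p was 0.9999 for each member. At an unadjusted p under 0.05, 0 of the 8 passed, against 361 of all genes tested (2.5%). Without CNS2KO 408 the counts were 1 of 8 members, Il10, and 1676 of 15797 genes tested. The CNS2KO and WT values did not separate for any member (0 of 8), against 6.76% of all genes tested (3.76% with both CNS2KO libraries above every WT library and 3% with both below). The estimated log2 fold change was positive for 2 members and negative for 6, with a median of -0.14, against -0.03 over all genes tested. With 2 samples against 5 there are 21 ways to assign the labels, so an exact two-sided permutation test of a single gene cannot go below p = 0.048. In sorted bulk RNA, fewer cells expressing a gene and less of its RNA per cell cannot be told apart.

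**Figure D1:**
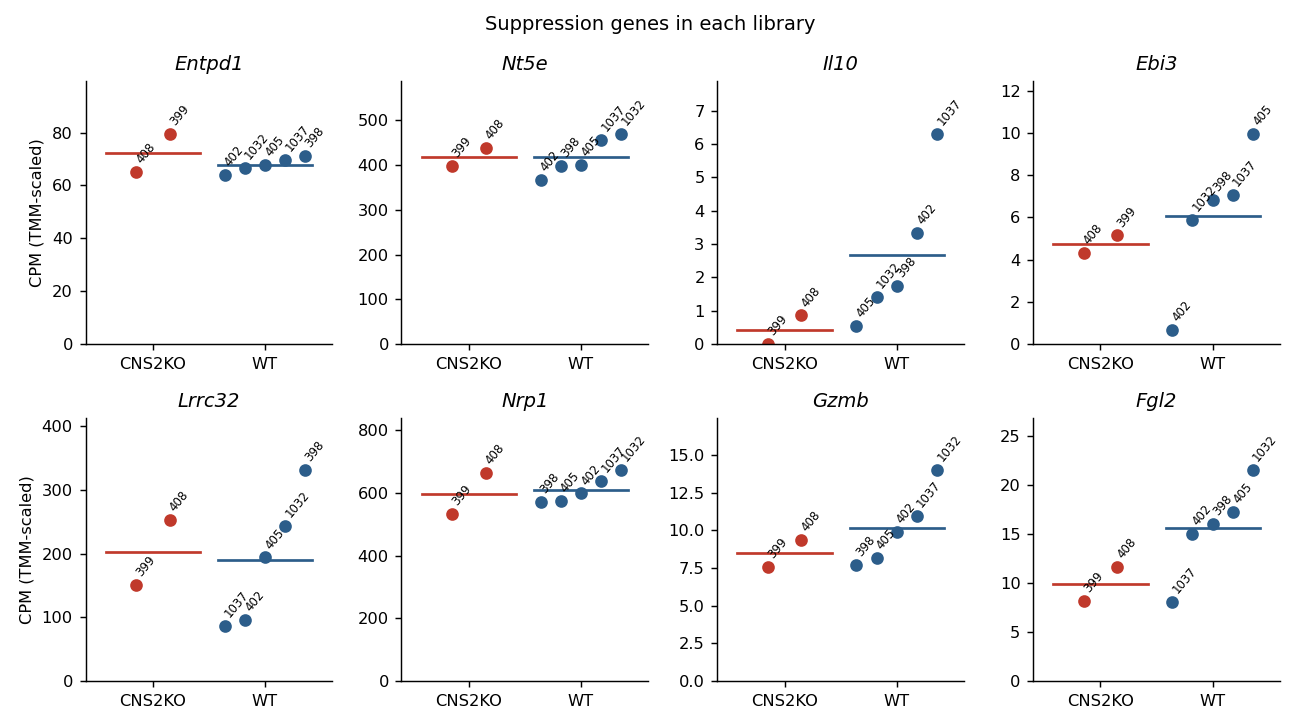
Level of each suppression gene in each library, in TMM-scaled CPM from 0, with CNS2KO libraries (n = 2) left of WT libraries (n = 5), points numbered by sample and lines at group means. The groups overlap in all 8 panels, and Entpd1 in WT spans 63.8 to 71.0 CPM while Lrrc32 in WT spans 86.5 to 331 CPM.

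Neither adenosine enzyme was called changed, and their estimates had narrow intervals. Entpd1, which removes phosphates from ATP and ADP, had 79.6 and 65.1 CPM in the CNS2KO libraries 399 and 408, against 71.0, 63.8, 67.8, 66.5 and 69.6 CPM in WT 398, 402, 405, 1032 and 1037. One CNS2KO library lay above the WT range and the other inside it. Its means were 72.3 ± 10.2 CPM in CNS2KO and 67.7 ± 2.77 CPM in WT (SD, n = 2 and 5), a log2 fold change of 0.10 (SE 0.19, 95% interval -0.32 to 0.51, exact permutation p = 0.429). Nt5e, which turns AMP into adenosine, had 397 and 438 CPM in CNS2KO, against 398, 367, 400, 470 and 455 CPM in WT in the same order of samples. Both CNS2KO values lay within the WT range. Its means were 417 ± 29.0 CPM in CNS2KO and 418 ± 43.1 CPM in WT (SD, n = 2 and 5), and the 95% interval of the log2 fold change ran from -0.35 to 0.34.

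Around these enzymes, 22 of 29 purine and adenosine genes were tested and 0 passed at an FDR of 0.05, with 12 estimates above 0, 10 below 0 and a median log2 fold change of 0.05. That median was 0.14 without CNS2KO 399 and -0.20 without CNS2KO 408. P2ry10, which codes for a lysophospholipid receptor of the P2Y-like family, averaged 401 CPM in CNS2KO and 330 CPM in WT (log2 fold change 0.28, SE 0.19). Slc28a2, a nucleoside transporter gene, averaged 306 CPM in CNS2KO and 289 CPM in WT. Adora2a, which encodes an adenosine receptor of lymphocytes, was low, at 9.02 CPM in CNS2KO and 6.91 CPM in WT (log2 fold change 0.38, SE 0.52).

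The cytokine genes had the fewest reads of the members, and Il10 had the largest estimate and the widest interval. Il10 had 0 and 18 reads in the CNS2KO libraries 399 and 408, against 32, 55, 11, 26 and 108 reads in WT 398, 402, 405, 1032 and 1037. In CPM these were 0 and 0.861 in CNS2KO, against 1.74, 3.34, 0.559, 1.40 and 6.31 in WT. CNS2KO 399 was below every WT library, a count of 0 there allowing up to 0.142 CPM by counting error alone, and CNS2KO 408 lay above WT 405. This gave an estimated log2 fold change of -2.61 (SE 1.54, 95% interval -5.99 to 0.76, unadjusted edgeR p = 0.117, exact permutation p = 0.143). The estimate turned on the CNS2KO libraries, being -1.62 without CNS2KO 399 and -8.63 without CNS2KO 408, where it is a fitted value against a single library at 0 and no bound. By DESeq2 the unadjusted p for Il10 was 0.0434 and the adjusted p was 0.999, with 496 of 14424 genes tested under an unadjusted 0.05. By limma on the authors' log2 values they were 0.0214 and 0.999. The unadjusted p for Il10 was 0.0998 by limma-voom and 0.128 by edgeR's exact test. CNS2KO 399 was also the library with the fewest genes read (14639). WT 402 (14810) and WT 1032 (14861) were close to it and had 55 and 26 Il10 reads. The part of the number of genes read in the Il10 value was not tested.

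Ebi3 had 5.15 and 4.30 CPM in CNS2KO, against 6.81, 0.667, 9.97, 5.88 and 7.07 CPM in WT. Of the 5 WT libraries, WT 402 was below both CNS2KO libraries and the other 4 were above them. Its estimated log2 fold change of -0.36 had an SE of 0.78 (95% interval -2.06 to 1.34), and without WT 402 it was -0.65 with an unadjusted edgeR p of 0.205, while without WT 405 it was -0.11. The partner chains of Ebi3 were barely read. Il12a, which pairs with Ebi3 in IL-35, had 0 and 4 reads in CNS2KO, against 1, 0, 2, 0 and 0 reads in WT. Il27, which pairs with Ebi3 in IL-27, had 0 reads in both CNS2KO libraries, against a single read in WT 405.

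Of 17 genes for partners, receptors and signalling of IL-10 and IL-35, 15 were tested and 0 passed, 8 with estimates above 0 and 7 below 0 (median log2 fold change 0.03). Jak1, a kinase that transmits cytokine receptor signals, had a log2 fold change of -0.12 (SE 0.20). Among 14 regulators of Il10 the count was likewise 0, with 6 above 0, 8 below 0 and a median of -0.11. Ets1, a transcription factor gene, averaged 2559 CPM in CNS2KO and 2530 CPM in WT, and Zfp36, whose product destabilises cytokine RNAs, averaged 322 CPM in CNS2KO and 378 CPM in WT.

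Lrrc32 differed more between libraries of one genotype than between genotypes. It had 151 and 253 CPM in CNS2KO 399 and 408, against 331, 94.97, 194, 243 and 86.5 CPM in WT 398, 402, 405, 1032 and 1037. Both CNS2KO values lay inside the WT range, which spanned 3.82-fold. The means were 202 ± 72.6 CPM in CNS2KO and 190 ± 103 CPM in WT (SD, n = 2 and 5), with a log2 fold change of 0.09 (SE 0.45, 95% interval -0.89 to 1.07). The sign followed the CNS2KO library kept, at 0.42 without CNS2KO 399 and -0.35 without CNS2KO 408.

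Of 19 genes for the carriage and activation of latent TGF-beta, 12 were tested, 0 passed, and the median log2 fold change was -0.15 (5 above 0, 7 below 0). The sign of that median depended on the library left out, at 0.12 without CNS2KO 399, -1.21 without CNS2KO 408, -0.27 without WT 1032 and -0.25 without WT 1037, and it was 0.056 with a term for WT 1032 and 1037. Hsp90b1, an endoplasmic reticulum chaperone that GARP needs to reach the surface, averaged 494 CPM in CNS2KO and 441 CPM in WT. Itgb8, the integrin subunit that helps release active TGF-beta from GARP, had 18.4 and 46.5 CPM in CNS2KO 399 and 408, against 33.6 to 73.9 CPM in WT, so that CNS2KO 399 was below every WT library and CNS2KO 408 inside the WT range (log2 fold change -0.59, SE 0.38). Itgb1, an adhesion integrin subunit, averaged 205 CPM in CNS2KO and 160 CPM in WT. Tgfb1, the cytokine gene itself, had 0 and 16 reads in CNS2KO, against 9, 1, 28, 7 and 8 reads in WT. The Tgfb1 count was at or under the floor of 3 reads in CNS2KO 399 and WT 402 and above it in the other libraries.

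Nrp1 had the highest mean level of the members per kilobase of the longest coding transcript. It had 533 and 664 CPM in CNS2KO, against 570, 598, 573, 672 and 638 CPM in WT. CNS2KO 399 was just below the WT range and CNS2KO 408 inside it. The means were 598 ± 92.4 CPM in CNS2KO and 610 ± 44.0 CPM in WT (SD, n = 2 and 5), with a log2 fold change of -0.03 (SE 0.15, 95% interval -0.36 to 0.30). Of 23 neuropilin partner genes, 10 were tested and 0 passed, with 2 estimates above 0, 8 below 0 and a median log2 fold change of -0.71. That median was -0.11 without CNS2KO 399, -1.33 without CNS2KO 408, -0.38 without WT 1032 and -0.22 with no filter on low counts. Most of these were low, and Sema3e, Sema3f and Kdr had no read in any library. Sema4a, a semaphorin described as a ligand of Nrp1 on Treg cells, averaged 9.42 CPM in CNS2KO and 14.9 CPM in WT (log2 fold change -0.66, SE 0.41). Sema4d, a semaphorin of T cells, averaged 200 CPM in CNS2KO and 212 CPM in WT.

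Gzmb had 7.56 and 9.37 CPM in CNS2KO, against 7.68, 9.89, 8.19, 14.0 and 10.9 CPM in WT. CNS2KO 399 was just below the WT range and CNS2KO 408 inside it. Its estimated log2 fold change of -0.26 had an SE of 0.40 (95% interval -1.14 to 0.62), with means of 8.47 ± 1.28 CPM in CNS2KO and 10.1 ± 2.51 CPM in WT (SD, n = 2 and 5). The estimate was -0.11 without CNS2KO 399, -0.12 without WT 1032 and -0.43 without CNS2KO 408. With WT samples of 3-digit number only it was -0.02, as it was with a term for WT 1032 and 1037. Of 26 cytotoxic granule genes, 20 were tested and 0 passed, with 14 estimates above 0, 6 below 0 and a median log2 fold change of 0.20, which was 0.11 without CNS2KO 408. Prf1, the pore-forming perforin that lets granzymes into target cells, averaged 21.01 CPM in CNS2KO and 17.3 CPM in WT. Srgn, the proteoglycan that packs granules, averaged 689 CPM in CNS2KO and 552 CPM in WT (log2 fold change 0.32, SE 0.21), and the cathepsin gene Ctsc, whose product activates granzymes, had a log2 fold change of -0.04 (SE 0.18).

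Gzma, another granule protease gene and chosen here after its values were seen, had an estimate of the opposite sign to that of Gzmb. It had 133 and 50 reads in CNS2KO 399 and 408, against 2, 17, 0, 1 and 13 reads in WT 398, 402, 405, 1032 and 1037. Both CNS2KO libraries were above every WT library, with a log2 fold change of 3.46 (SE 1.36, exact permutation p = 0.048, the smallest possible, unadjusted edgeR p = 0.0263, adjusted p = 0.9999). Of 12 NK and CD8 T cell markers, 9 had reads, and Ncr1, Klra1 and Klra8 had 0 in every library. These markers summed to 61.8 CPM in CNS2KO 399 and 50.6 CPM in CNS2KO 408, against 48.1 to 61.5 CPM in WT. Their part in the Gzma value was not tested.

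Fgl2 was the member with the second smallest p. It had 8.17 and 11.7 CPM in CNS2KO, against 16.1, 15.05, 17.2, 21.5 and 8.06 CPM in WT. Both CNS2KO values were below 4 of the 5 WT libraries and above WT 1037. The means were 9.92 ± 2.47 CPM in CNS2KO and 15.6 ± 4.88 CPM in WT (SD, n = 2 and 5), with a log2 fold change of -0.65 (SE 0.41, 95% interval -1.54 to 0.24, unadjusted edgeR p = 0.137, exact permutation p = 0.286). Without WT 1037 the log2 fold change was -0.82 (adjusted p = 0.9998 by edgeR's quasi-likelihood test, the unadjusted value being 0.0448), and without CNS2KO 399 it was -0.41. Of 6 other fibrinogen-like and Fc receptor genes, 3 were tested and 0 passed. The inhibitory Fc receptor gene Fcgr2b, a receptor of Fgl2, averaged 0.455 CPM in CNS2KO and 0.974 CPM in WT, with no read in 3 of the 7 libraries.

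**Figure D2:**
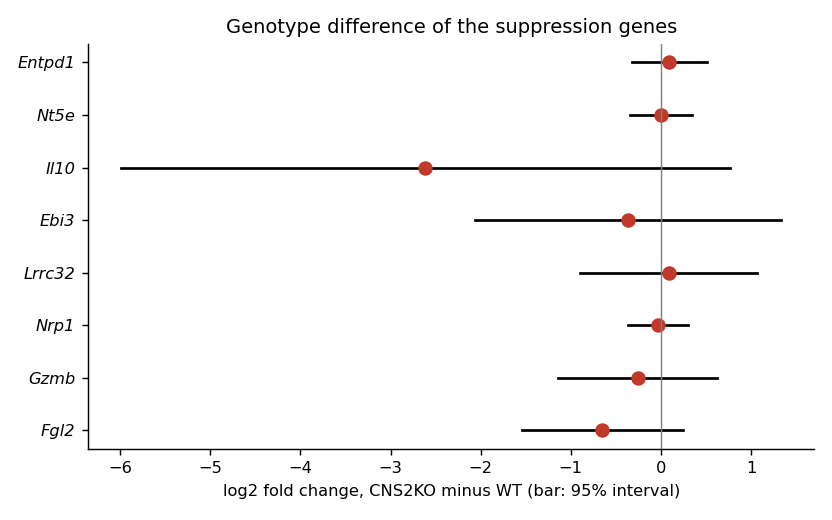
Log2 fold change of each suppression gene, CNS2KO minus WT, by edgeR's quasi-likelihood fit (points) with its 95% interval (bars) and a line at 0. All 8 intervals cross 0, from the narrow intervals of Nrp1 (-0.36 to 0.30) and Nt5e (-0.35 to 0.34) to that of Il10 (-5.99 to 0.76).

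Written as ratios of CNS2KO to WT, the 95% intervals ran from 0.779 to 1.23 for Nrp1, from 0.787 to 1.27 for Nt5e and from 0.803 to 1.42 for Entpd1. They ran from 0.538 to 2.10 for Lrrc32 and from 0.0157 to 1.70 for Il10, which covers large as well as small differences in these genes.

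Per kilobase of the longest coding transcript (lengths from GENCODE on GRCm38), the order of the members was the same in both genotypes. Nrp1 stood at 166 CPM per kb in CNS2KO and 170 in WT, followed by Nt5e at 104 in CNS2KO and 105 in WT, Lrrc32 at 44.1 in CNS2KO and 41.5 in WT, and Entpd1 at 17.1 in CNS2KO and 16.0 in WT. The low members were Gzmb at 5.90 CPM per kb in CNS2KO and 7.06 in WT, Ebi3 at 4.10 in CNS2KO and 5.27 in WT, Fgl2 at 2.62 in CNS2KO and 4.12 in WT, and Il10 at 0.329 in CNS2KO and 2.04 in WT. The WT ranges of neighbours in this order did not overlap from Nrp1 (158 to 187) down to the step between Entpd1 (15.1 to 16.8) and Gzmb (5.35 to 9.73). The ranges of Gzmb, Ebi3, Fgl2 and Il10 overlapped from one to the next, so their order was not resolved by the WT libraries. Scaled instead by the length of all exons of a gene, Lrrc32 spanned 18.4 to 70.5 in WT and overlapped both Nrp1 (58.3 to 68.7) and Nt5e (42.6 to 54.6), so the order of these 3 was not resolved on that scale, while Entpd1 (11.4 to 12.7) stayed below them and above Gzmb. Among genes tested, Nrp1 was at percentile 96.6 of the mean length-scaled level over the 7 libraries, Gzmb at 50.6 and Il10 at 25.0.

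**Figure D3:**
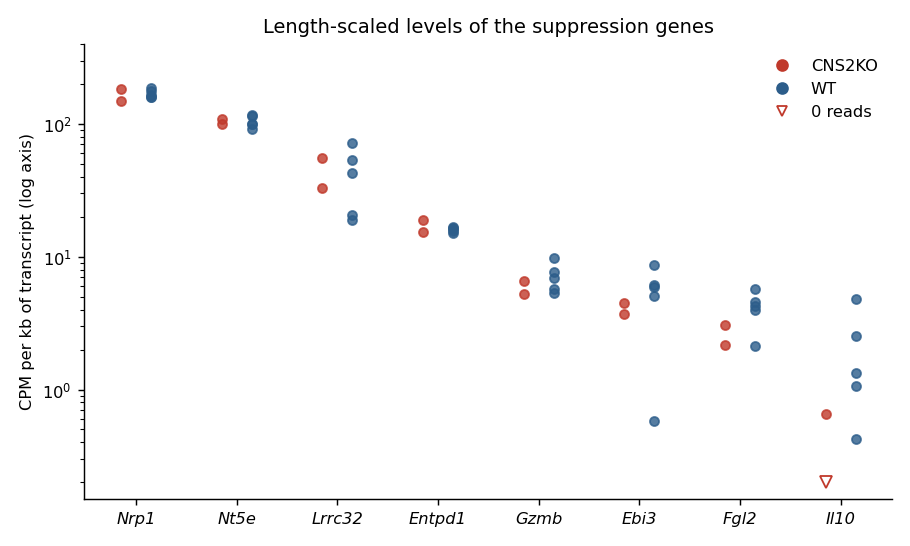
Length-scaled level of each suppression gene per library (CPM per kilobase of transcript, log axis), CNS2KO (n = 2, left) beside WT (n = 5, right), genes ordered by WT mean. Nrp1, Nt5e, Lrrc32 and Entpd1 stand above the other 4 genes in every library, and the open triangle marks Il10 in CNS2KO 399, which had 0 reads.

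Spread among the WT libraries set the members apart from one another. Over the 5 WT libraries, the SD of log2 CPM was 0.848 for Lrrc32, against a median of 0.226 for tested genes of like level, which placed it at percentile 99.7 of them. Ebi3 had an SD of 1.48 (median of like genes 0.663, percentile 94.2), and without WT 402 its SD was 0.318. Entpd1 was at the opposite end, with an SD of 0.0593 (median of like genes 0.271, percentile 0.277) and a WT range of 1.11-fold. Nrp1 (0.103, percentile 10.3), Gzmb (0.342, percentile 19.2) and Nt5e (0.148, percentile 28.0) also lay below the median of genes of like level, whereas Fgl2 (0.525, percentile 64.2) lay above it and Il10 (1.24, percentile 50.3) close to it. These are descriptions of 5 libraries, in which like-level genes share the same RNA and depth.

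**Figure D4:**
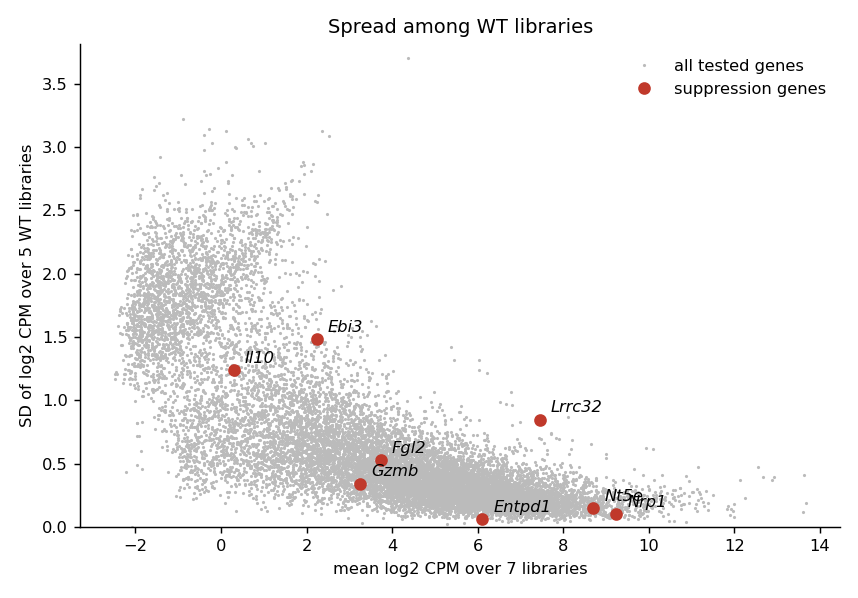
SD of log2 CPM over the 5 WT libraries against mean log2 CPM over all 7 libraries, with tested genes in grey and the suppression genes in red. Lrrc32 (SD 0.848) lies above nearly all genes of its level and Entpd1 (SD 0.0593) below nearly all of its own.

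The libraries also differed by transcript length. Among 8923 genes above a mean log2 CPM of 2, the tenth with the shortest transcripts (up to 1015 bases) had median deviations from the mean of all libraries of 0.29 and -0.10 on the log2 scale in CNS2KO 399 and 408, against -0.29, 0.25, -0.08, -0.18 and 0.23 in WT 398, 402, 405, 1032 and 1037. The tenth with the longest (from 6505 bases) had -0.22 and 0.09 in CNS2KO, against 0.23, -0.13, 0.03, 0.25 and -0.13 in WT. Lrrc32, with a transcript of 4576 bases and a GC content of 58.3%, deviated by -0.21 and 0.54 in CNS2KO, against 0.92, -0.88, 0.15, 0.48 and -1.01 in WT. Its deviation had the sign of that of the longest transcripts in every library, but the sizes did not run in parallel. CNS2KO 399 had -0.22 for the longest transcripts and -0.21 for Lrrc32, whereas WT 1037 had -0.13 and -1.01. The part of transcript length in the Lrrc32 values was not tested. The 273 genes of like length and GC deviated less, with medians of -0.11 and 0.05 in CNS2KO, against 0.41, -0.11, 0.06, 0.09 and -0.20 in WT. After subtraction of each library's trend over length and GC, an alternative added after seeing the data, the SD of Lrrc32 over WT was 0.612 (percentile 99.6) and that of Entpd1 was 0.0729 (percentile 1.31). Nrp1 had moved to 0.148 (percentile 50.5), and Il10 to 1.12 (percentile 46.7), just below the median of genes of like level.

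**Figure D5:**
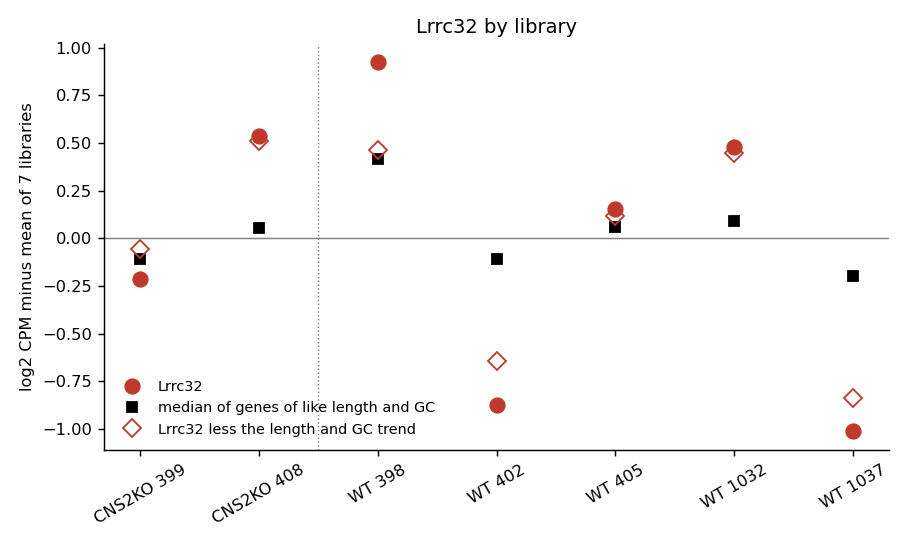
Lrrc32 in each library as log2 CPM minus its mean over the 7 libraries (filled circles), the median of the same quantity for 273 genes of like transcript length and GC content (squares), and Lrrc32 less the library's trend over length and GC (open diamonds). WT 402 and WT 1037 are low (-0.88 and -1.01) and WT 398 is high (0.92), with smaller moves of the like genes in those libraries.

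Across the 7 libraries, 28 pairs of members were compared by exact permutation of 5040 orders, and 0 pairs passed after Benjamini-Hochberg adjustment. The closest pair was Gzmb and Nrp1, with Pearson's r = 0.84 (exact permutation p = 0.0155, adjusted 0.43) and Spearman's rho = 0.89 (exact permutation p = 0.0123, adjusted 0.34). Leaving out WT 1032 and CNS2KO 399, the libraries farthest from the Gzmb median, r was 0.72. These libraries share a protocol and the gradients in transcript length given above.

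The genes whose pattern over the 7 libraries was most like that of each member were found among 6551 or 6552 candidates by the root mean square difference of centred log2 CPM. They were Ndufab1 (0.047) and Pmpca (0.049) for Entpd1, Cspp1 (0.050) and Eif2b1 (0.050) for Nt5e, and Lrrfip1 (0.051) and Ptprc (0.055) for Nrp1. The nearest to Lrrc32 were Znfx1 (0.13) and Ttll4 (0.16), and those to Gzmb were Lyar (0.078) and Sec63 (0.089). For the more variable low genes the nearest patterns were further off, with Fam178a (0.17) and Myo18a (0.18) for Fgl2, Ergic1 (0.40) and Abl2 (0.47) for Ebi3, and Atp6v0d2 (1.01) and Pdk3 (1.08) for Il10.

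Beyond the members, 22 genes with other parts in Treg suppression were tested and 0 passed, 11 above 0 and 11 below 0, with a median log2 fold change of -0.01. Il2ra, the IL-2 receptor alpha chain that lets Treg cells take up IL-2, averaged 1789 CPM in CNS2KO and 1830 CPM in WT, and Ctla4, the receptor that removes costimulatory ligands from antigen-presenting cells, averaged 452 CPM in CNS2KO and 411 CPM in WT. Over all related lists, 118 of 156 genes were tested, 0 passed, and 3 had an unadjusted p under 0.05 (2.54%, against 2.5% of all genes tested). In the fit to all libraries the 3 were Gzma, Cd83, a marker of activated lymphocytes, with 347 CPM in CNS2KO and 249 CPM in WT, and Il6ra, an IL-6 receptor gene, with 41.3 CPM in CNS2KO and 59.6 CPM in WT, all named after their values were seen. The CNS2KO and WT values did not overlap for 10 of the 118 (8.47%, against 6.76% of all genes tested). Both CNS2KO libraries were above every WT library for 7 of them and below every WT library for 3.

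A list of 20 genes that mark effector Treg cells, which holds Il10, Ebi3 and Gzmb, had 17 estimates below 0 and 3 above 0, with a median log2 fold change of -0.34, against -0.03 over all genes tested. The median was -0.21 without WT 1037 and -0.16 with WT samples of 3-digit number only. None passed at an FDR of 0.05. An unadjusted edgeR p under 0.05 was found for 2 of the 20, against 361 of all 14424 genes tested (2.5%). Those 2 were Ccr8, a chemokine receptor gene, with 15.5 CPM in CNS2KO and 29.1 CPM in WT, and S100a6, a calcium-binding protein gene, with 28.3 CPM in CNS2KO and 52.1 CPM in WT. Tnfrsf4 and Icos, the most highly expressed of the list, had log2 fold changes of 0.16 and -0.26. The list's summed level was 1568 CPM in CNS2KO 399 and 1517 CPM in CNS2KO 408, against 1513 to 2012 CPM in WT, so the groups overlapped.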

How the data were processed

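Treg cells were sorted from mice, total RNA was amplified with a SMARTer kit and libraries were sequenced by the Proton protocol, per the labels. STAR, BWA and edgeR, without versions or roles, and the build mm9 are named in the submitters' processing notes, and which annotation and counter were used is not given in the sources used here. Raw counts per gene and a table of log2 values, whose scaling was not given, were deposited by the authors, and the deposited table of signed values was not used. Among the rows, 5 summaries of the counter were left out, and reads on genes made up 22.0% (WT 402) to 23.7% (CNS2KO 408) of each column. In each table, 2 columns numbered 407 with identical values were not used.

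edgeR 4.0.16 in R 4.3.3 was run on the counts (filterByExpr, TMM, two-sided quasi-likelihood test, Benjamini-Hochberg adjustment over 14424 genes at an FDR of 0.05). Each SE was taken as the absolute log2 fold change divided by the square root of F. Exact permutation tests used log2(CPM + 0.5) and correlations log2 CPM with a prior count of 2. Like-level genes lie within 1 log2 unit of a gene's mean, and like genes have transcripts within 1.25-fold in length and GC within 3 percentage points. Intervals cover 95%, and floors of 3 counts take in no error but that of counting, the reads having no molecular identifiers. Transcript lengths and promoters come from builds of GRCm38, matched by symbol, and no coordinate was carried over from mm9. Alternatives used limma 3.58.1, DESeq2 1.42.0, other filters and scalings, and left-out libraries; limma was also run on the authors' log2 values. Only the edgeR quasi-likelihood test and the offsets for transcript length and GC were checked on simulated counts.

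The members and gene lists were chosen with earlier results of these data known. Besides the members, the rule allowed up to 4 genes per list past the FDR, or otherwise the 2 most highly expressed, the 2 genes most like each member among those with a mean log2 CPM of at least 4, and Il12a, Tgfb1, Itgb8, Prf1, Adora2a and Sema4a; others are named as chosen after their values were seen, and some that the rule allows are not reported here. Il27, Ccr8 and S100a6 were also named after their values were seen. Foxp3, Ikzf2 and the genes given as having no read in any library were likewise named outside this rule.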

Additional observations from a re-analysis of the deposited data

Results flagged for a closer look

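Among 59 genes checked for a library far from the others of its group, 2 stood apart, and chance alone gives about 1 in 20 such groups. Srgn, which codes for the granule proteoglycan serglycin, had 777 CPM in WT 1037, and the nearest WT library had 553 CPM. Ighm, the immunoglobulin heavy chain gene, had 1308 CPM in WT 1037, and the nearest WT library had 1055 CPM. None of the 8 suppression genes was among them. The check was made on CPM and not on log2 CPM. On the log2 scale Ebi3 was at -0.37 in WT 402, against 2.58 to 3.33 in the other WT libraries.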

How the results depend on the processing

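No member passed at an FDR of 0.05 under any alternative run in which it was tested. Over all genes tested, the number called was 8 (7 higher and 1 lower in CNS2KO) with no filter on low counts and 0 otherwise. With the filter on low counts, the smallest adjusted p over all genes was 0.076 by DESeq2 and 0.058 by edgeR's exact test. The sign of small estimates depended on the setting. For Nt5e the log2 fold change was -0.0017 in the main fit and 0.0021 by limma-voom. It was 0.11 with WT samples of 3-digit number only and 0.10 with a term for WT 1032 and 1037. By limma on the authors' log2 values it was 0.0046, and with offsets for transcript length and GC it was 0.047. The Nt5e permutation difference was 0.0026 in the main setting and -0.053 without TMM. Under those sample-number settings the log2 fold change was -0.032 in each for Lrrc32, and 0.044 and 0.043 for Nrp1, which had 0.018 with the offsets. For Ebi3 it was 0.057 on the authors' log2 values, and the permutation difference was 0.033 with a pseudocount of 0.1. Leaving out 1 library at a time gave -0.052 to 0.22 for Entpd1, -0.082 to 0.072 for Nt5e, -0.35 to 0.42 for Lrrc32 and -0.20 to 0.13 for Nrp1. The cause was not tested. Correlated pairs numbered 0 to 1 without a library (1 without CNS2KO 408, Gzmb and Nrp1, and 1 without WT 402, Nt5e and Gzmb). Members with a WT spread above the median of like-level genes numbered 4, and 2 to 4 without a library (2 without WT 1037). Less the trend over length and GC they again numbered 4, with Nrp1 in place of Il10. The median of the purine list changed sign without CNS2KO 408 and that of the TGF-beta list without CNS2KO 399, as given with those lists, and those of the IL-10 and IL-35 list and of the other suppression genes lay between -0.06 and 0.07 without a library. No paired analysis was possible because the genotypes share only the number 407, whose columns were not used. With 2 CNS2KO libraries, the depth of Il10 and Ebi3 limits what can be seen.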
